A study of Homo sapiens with 15 samples.

Results

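The 9 genes FHIT, WWOX, IMMP2L, MACROD2, LRP1B, CTNNA3, DMD, DLG2 and LSAMP were chosen by name as very long genes that lie at or near common fragile sites. They are 9 of 323 protein-coding genes with a gene row of at least 500 kb, and together they covered 15.1 Mb of sequence. K562 is a human leukemia cell line, wild-type here only in that the authors describe no genetic modification of it. Crosslinked K562 nuclei were left untreated or digested with 0.01, 0.1, 1 or 10 U of nuclease P1, with 3 biological replicates each (15 samples). P1 cuts single-stranded DNA, and SSiNGLe-P1 tags the 3′-OH termini of DNA, so a site is 1 nuclear position and strand with at least 1 terminus, whether it was left by P1 or was already present.

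Common fragile sites are stretches of chromosomes that show gaps and breaks when replication is slowed. Many of them lie in genes so long that transcription of the gene and replication can overlap in time, and deletions inside these genes are frequent in cancer cell lines. FHIT encodes a hydrolase of dinucleoside polyphosphates and WWOX an oxidoreductase with WW domains. Both genes are often shortened in tumors. IMMP2L encodes a subunit of a peptidase of the inner mitochondrial membrane, MACROD2 an enzyme that removes ADP-ribose, LRP1B an endocytic receptor of the LDL receptor family, CTNNA3 a catenin of cell adhesion, DMD the muscle protein dystrophin, DLG2 a scaffold protein of synapses, and LSAMP an adhesion protein of neurons.

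On hg19, the gene rows were chr3:59733003-61237133 for FHIT, chr16:78133297-79246564 for WWOX, chr7:110302700-111202573 for IMMP2L, chr20:13976015-16033842 for MACROD2, chr2:140988992-142888585 for LRP1B, chr10:67672215-69523395 for CTNNA3, chrX:31115794-33357726 for DMD, chr11:83166055-85339379 for DLG2 and chr3:115521221-116858236 for LSAMP. WWOX and MACROD2 lie on the plus strand and the other 7 genes on the minus strand. Between 6 (IMMP2L) and 91 (LRP1B) exons of the MANE transcripts, the reference transcripts of the annotation, lie in these rows. Nearly all of each row is therefore intron, and the longest single introns ranged from 248401 bases (DMD) to 778855 bases (WWOX).

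The sites of the 9 genes were mostly scattered. They comprised 119898 different positions and strands over the 15 samples, of which 117216 were seen in 1 sample and 7 in at least 10 samples. The deposited lists of regions enriched over untreated samples touched the genes in 215 merged regions, of which 195 were called in only 1 of the 12 lists. The same shares over all nuclear sites and regions are not given, so these counts describe the genes and do not set them apart. Of the 3 regions called in the most lists, 2 are shown as places where sites recurred over at most 100 bases, and the other is not reported here. Capitals mark the region and lower case the 20 bases on either side, all on the plus strand of hg19.
IMMP2L intron 1: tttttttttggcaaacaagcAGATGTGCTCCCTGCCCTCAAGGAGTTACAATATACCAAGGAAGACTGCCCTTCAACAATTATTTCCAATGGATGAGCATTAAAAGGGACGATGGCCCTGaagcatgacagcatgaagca
DLG2 intron 6: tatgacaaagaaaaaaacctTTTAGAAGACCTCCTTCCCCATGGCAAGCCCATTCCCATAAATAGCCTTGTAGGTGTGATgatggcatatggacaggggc

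The region in IMMP2L intron 1 lies at chr7:111165871-111165970 and was called in 4 lists, those of 0.01 U replicate 2, 0.1 U replicate 1 and 1 U replicates 1 and 2. It held 6, 8 and 7 sites in the untreated samples. With P1 it held 5, 18 and 10 sites (0.01 U), 16, 10 and 12 (0.1 U), 22, 18 and 8 (1 U) and 3, 5 and 8 (10 U). Sites were thus present in every sample. In these counts, which are not scaled to depth, the 0.1 U samples lay above the untreated ones, and the other 3 amounts overlapped or touched them. The region was chosen for its calls over untreated samples, so this contrast is a description and was not tested. The 156 sites lay at 66 different positions, and every one was a break on the minus strand, which is the gene strand of IMMP2L.

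The region in DLG2 intron 6 lies at chr11:84427671-84427730, was called in all 3 lists of 10 U, and held 4, 3 and 5 sites at 10 U and 1 site in the other 12 samples together. Its breaks lay on the plus strand, opposite to the gene strand of DLG2. These counts chose the region, so its contrast of 10 U with untreated samples is a description and was not tested. The 20 bases before the IMMP2L region on the side of the sequenced read held 9 T. Almost no termini with more than 7 T remained in the files after the removal of T-rich termini, so termini closer to this T run could not be seen.

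At single positions, 3 neighbouring positions of FHIT intron 2 were among the 5 that recurred in the most samples. They are shown on the strand of the break, 5′ to 3′, with the terminal base in capitals.
FHIT position 61127806: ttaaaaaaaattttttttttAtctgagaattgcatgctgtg
FHIT position 61127804: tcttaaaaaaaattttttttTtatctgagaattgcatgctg
FHIT position 61127805: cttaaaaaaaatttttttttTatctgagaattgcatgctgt
LSAMP position 116539918: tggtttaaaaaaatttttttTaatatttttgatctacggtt
IMMP2L position 111165933: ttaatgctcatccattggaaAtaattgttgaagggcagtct

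The first FHIT position was hit in 15 of 15 samples. It held 6, 17 and 13 termini in the untreated samples, counted without scaling. With P1 it held 28, 22 and 14 termini (0.01 U), 18, 27 and 21 (0.1 U), 10, 20 and 11 (1 U) and 4, 7 and 9 (10 U). The position 2 bases away was also hit in all 15 samples (144 termini) and the one between them in 12 (28 termini). All 3 FHIT breaks lay on the plus strand, opposite to the gene strand, at the end of a run of A followed by a run of T. The LSAMP position, also on the plus strand behind a similar run, was hit in 14 samples with 50 termini. The IMMP2L position was hit in 13 samples with 39 termini, and it lies inside the intron 1 region described above.

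The 9 genes held between 6446 and 12341 sites per sample, out of 2046116 to 3859475 sites per sample on chromosomes 1 to 22 and X. A single gene held between 402 (LSAMP, 1 U replicate 2) and 2091 sites (WWOX, untreated replicate 1). In the untreated samples this was 0.314% ± 0.00464 of all sites (SD, n = 3), whereas the genes hold 0.532% of the bases. The share at the P1 amounts had means between 0.303% (10 U) and 0.326% (1 U), and over all 15 samples it lay between 0.290% and 0.335%. The 9 genes had between 34.8% (LRP1B) and 42.6% (WWOX) GC, and intergenic 50 kb bins of equal GC had an untreated site density (sites per Mb, scaled to 1000000 sites of the sample) of 151 for LRP1B and 374 for WWOX. Each gene was therefore compared with such bins of the same sample. Site counts do not separate the number of copies of a stretch of DNA in K562 from the number of breaks per copy, so in every density below the 2 cannot be told apart.

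The density ratio of sites to those intergenic bins differed widely among the genes. In the untreated samples FHIT had a site density of 157, 174 and 155, and its density ratio was 0.612, 0.714 and 0.646. MACROD2 had density ratios of 0.655, 0.666 and 0.537, LSAMP of 0.671, 0.807 and 0.781, and DMD of 0.743, 0.806 and 0.817. These 4 genes lay below 1 in 15 of 15 samples. Of the 314 other protein-coding genes of 500 kb or more, 7 had a lower mean density ratio than MACROD2, 11 a lower one than FHIT, 40 a lower one than LSAMP and 48 a lower one than DMD.

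IMMP2L stood at the other end. It had a site density of 372, 413 and 427 in the untreated samples, with density ratios of 2.02, 2.39 and 2.53, and 313 of the 314 other long genes had a lower mean. CTNNA3 had density ratios of 1.34, 1.27 and 1.36 and WWOX of 1.27, 1.24 and 1.29, both above 1 in 15 of 15 samples. DLG2, at 1.05, 1.06 and 1.13, was above 1 in all 15 samples too, and LRP1B, at 1.08, 0.927 and 1.07, in 11 of 15. The order of the untreated means was IMMP2L (2.31 ± 0.262), CTNNA3 (1.33 ± 0.0477), WWOX (1.27 ± 0.0235), DLG2 (1.08 ± 0.0427), LRP1B (1.02 ± 0.0840), DMD (0.789 ± 0.0401), LSAMP (0.753 ± 0.0723), FHIT (0.657 ± 0.0518) and MACROD2 (0.619 ± 0.0713; SD, n = 3 each). Within this order CTNNA3 and WWOX, DLG2 and LRP1B, DMD and LSAMP, and FHIT and MACROD2 had overlapping untreated values, as had LSAMP and FHIT.

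**Figure D1:**
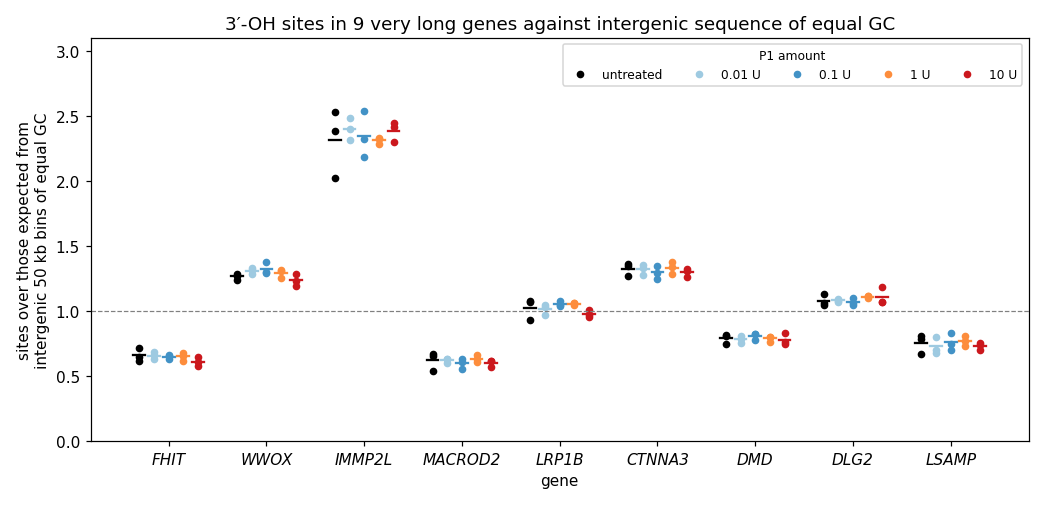
Density ratio of each gene (y axis, no unit), that is its sites over those expected from intergenic 50 kb bins of equal GC, with 1 point per sample, coloured by P1 amount, and a short line at the mean of 3. IMMP2L lies above 2 in every sample, FHIT, MACROD2, DMD and LSAMP lie below 1 in every sample, and within a gene the P1 amounts differ far less than the genes differ from each other.

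The median of the untreated density ratios was 1.02 over the 9 genes, 1.03 over 16 other very long genes at or near fragile sites and 1.07 over the other 298 protein-coding genes of 500 kb or more. The lowest and highest of these 298 were 0.224 and 3.18. The members thus covered much of the range seen in long genes, with 4 of 9 below 1 against 106 of 298.

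The chromosomes differed in level as well. The median intergenic bin of chromosome 7 had a ratio of 1.35 ± 0.00584 to all intergenic bins of equal GC, and relative to it IMMP2L still had a ratio of 1.71 ± 0.188. Against the 1 Mb on either side, however, the ratio of IMMP2L was 0.923 ± 0.0876, so the rise reached beyond the gene. The median intergenic bin of the X chromosome was at 0.674 ± 0.0143, and relative to it DMD was above 1, at 1.17 ± 0.0833. FHIT remained low relative to its chromosome (0.689 ± 0.0518), and so did MACROD2 (0.740 ± 0.0768) and LSAMP (0.789 ± 0.0735). The lows of FHIT and MACROD2 were not confined to the genes. At equal GC, the 50 kb bins just outside FHIT had mean ratios of 0.770 and 0.945, and the outermost flank bins 0.813 and 0.664. For MACROD2 these were 0.571 and 0.620, and 0.589 and 0.612. The highest flank bins reached 1.00 (FHIT) and 1.04 (MACROD2).

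Against their own 1 Mb flanks, DLG2 (0.551 ± 0.0288), CTNNA3 (0.654 ± 0.0544) and LRP1B (0.753 ± 0.0836) held fewer sites in the untreated samples and in 15 of 15 samples, although none of the 3 was low against intergenic sequence. MACROD2 (0.677 ± 0.0901), FHIT (0.818 ± 0.0556) and DMD (0.888 ± 0.0618) were also below their flanks in 15 of 15 samples. These flank ratios are not corrected for GC. WWOX (1.16 ± 0.0284) was above its flanks in all 15 samples, and LSAMP (1.04 ± 0.0649) was above them in 10.

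Along the genes, the profile of FHIT was the most uneven. Its 31 bins of 50 kb ranged from a ratio of 0.300 ± 0.0881 to 1.10 ± 0.200 (SD over 15 samples), a factor of 3.68. The lowest bin (chr3:60700001-60750000) lies in intron 4. The highest (chr3:60500001-60550000) has its midpoint in intron 4 and also holds exon 5. The lowest bin did not exceed 0.447 in any sample, and the highest did not fall below 0.710.

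FHIT had 2 runs of at least 2 consecutive 50 kb bins with a ratio below 0.5 in the pooled sites of replicate 1, and no other of the 9 genes had such a run. This criterion was chosen after the profile had been seen, and the values given are from the 10 samples of replicates 2 and 3, which it did not use. The run at chr3:60600001-60750000, 150 kb within intron 4, had a density ratio of 0.362 ± 0.0740. The run at chr3:59750001-60050000, 300 kb near the 3′ end of the gene, holds exons 6, 7 and 8 of the MANE transcript and had a ratio of 0.385 ± 0.0564. The rest of FHIT had a ratio of 0.784 ± 0.0410 in the same samples, and its lowest sample (0.723) was above the highest sample of either run (0.477 and 0.507). The runs thus stood at 0.463 ± 0.0959 and 0.492 ± 0.0735 of the rest of the gene. The ends of the runs depend on the threshold, since the bins just outside them on the sides that face each other had pooled ratios of 0.503 (before the first run named) and 0.506 (after the second) in replicate 1. Neither run was empty of sites, with 19 to 40 and 61 to 102 sites per sample.

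The same unevenness was found in 10 kb bins, with segments chosen on the 5 samples of replicate 1 and measured in the other 10. In FHIT, 1 segment of few sites, with a ratio under 0.25 in replicate 1, was chosen at chr3:60690001-60710000 in intron 4. It held 14 sites in the 5 choosing samples and 30 in the 10 measured ones, between 0 and 6 per sample, where 122 were expected from intergenic bins (ratio 0.256 ± 0.171). Segments lower than 0.6 of the median were chosen at chr3:60660001-60750000, which had a ratio of 0.328 ± 0.0875, and at chr3:59880001-59930000, which had a ratio of 0.434 ± 0.0993.

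Between the 2 low runs of FHIT, a 50 kb segment at chr3:60480001-60530000, around exon 5, was chosen as higher than 1.4 of the median. It had a density ratio of 1.33 ± 0.167 in the measured samples, 1.88 ± 0.232 relative to the remaining bins of the gene and flanks. Every one of the 10 samples lay between 1.62 and 2.37 on this last scale, with 1.89 to 2.07 in the untreated samples and 1.62 to 2.37 in the treated ones.

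**Figure D2:**
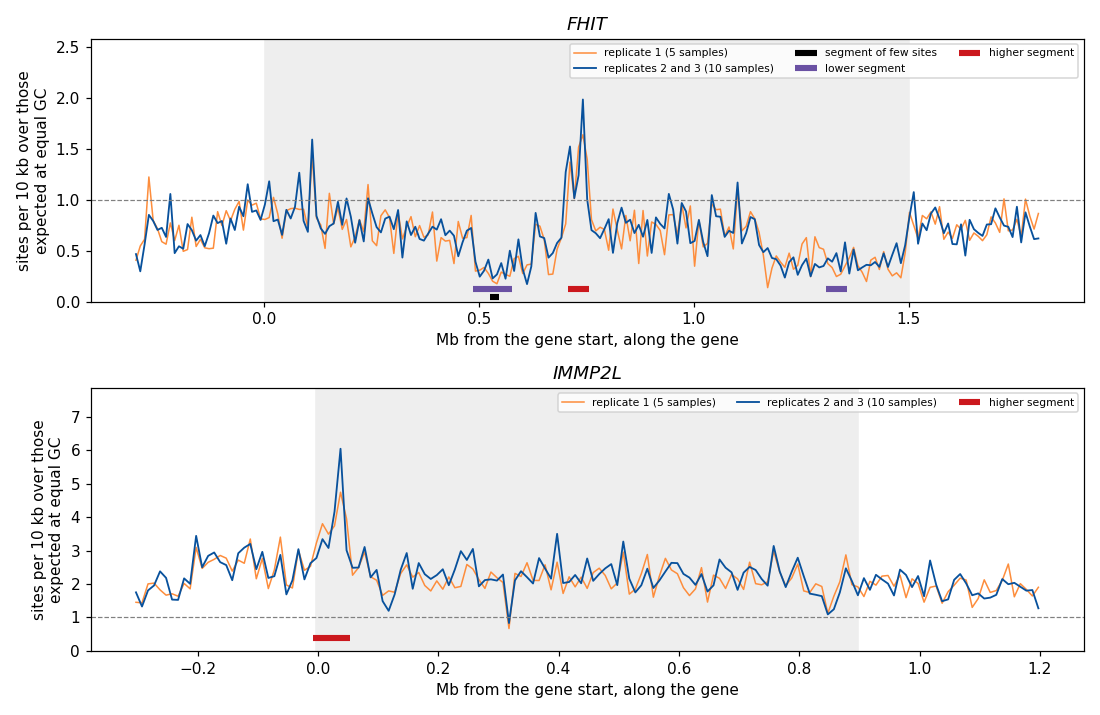
Sites per 10 kb bin over those expected at equal GC (y axis) along FHIT and IMMP2L (x axis, Mb from the gene start), for the 5 samples of replicate 1 and the 10 samples of replicates 2 and 3, with the gene shaded and the chosen segments as bars. Both sets of samples show low stretches on either side of a peak in FHIT and a peak at the start of IMMP2L.

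In IMMP2L, the segment higher than 1.4 of the median lay at the start of the gene, at chr7:111150001-111210000, and covers exons 1 and 2. In the 10 measured samples it held 83 to 150 sites each and had a density ratio of 3.62 ± 0.378, which was 1.79 ± 0.202 relative to the remaining bins, with 1.53 as the lowest sample and 2.13 as the highest. The recurrent region of intron 1 lies in this segment and gave 8.75% of its 1783 sites. The other bins of IMMP2L and its flanks were already at 2.03, and the lowest 50 kb bin of the gene was at 1.72 ± 0.243.

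No stretch of 20 kb or more in the 9 genes or their flanks stayed under 0.1 of the intergenic level in replicate 1. The only other chosen segment lay outside the gene rows, at chrX:33540001-33590000 upstream of DMD. It reached 1.31 ± 0.215 relative to the remaining bins in the measured samples, where 1 of its values was as low as 0.923.

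Within the other genes the profiles were flatter. The highest 50 kb bin exceeded the lowest by a factor of 1.48 in WWOX, 1.57 in MACROD2, 1.58 in LRP1B, 1.60 in CTNNA3, 1.86 in LSAMP, 1.87 in DLG2 and 2.46 in DMD. The lowest bin of WWOX and the highest of LRP1B only overlap an end of the gene row. Their midpoints lie outside it, so the factors of WWOX and LRP1B rest in part on flanking sequence. In DMD the lowest bin, at 0.476 ± 0.108, lay in intron 1 and the highest, at 1.17 ± 0.211, in intron 45. The profile of the 5 samples of replicate 1 correlated across bins with that of the other 10 samples, with r = 0.973 over the 31 bins of FHIT, 0.938 over the 19 bins of IMMP2L and 0.813 over the 46 bins of DMD. The lowest such r was 0.458, over the 39 bins of LRP1B. Bins are not independent replicates, and the profiles share the DNA sequence and the cell line.

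**Figure D3:**
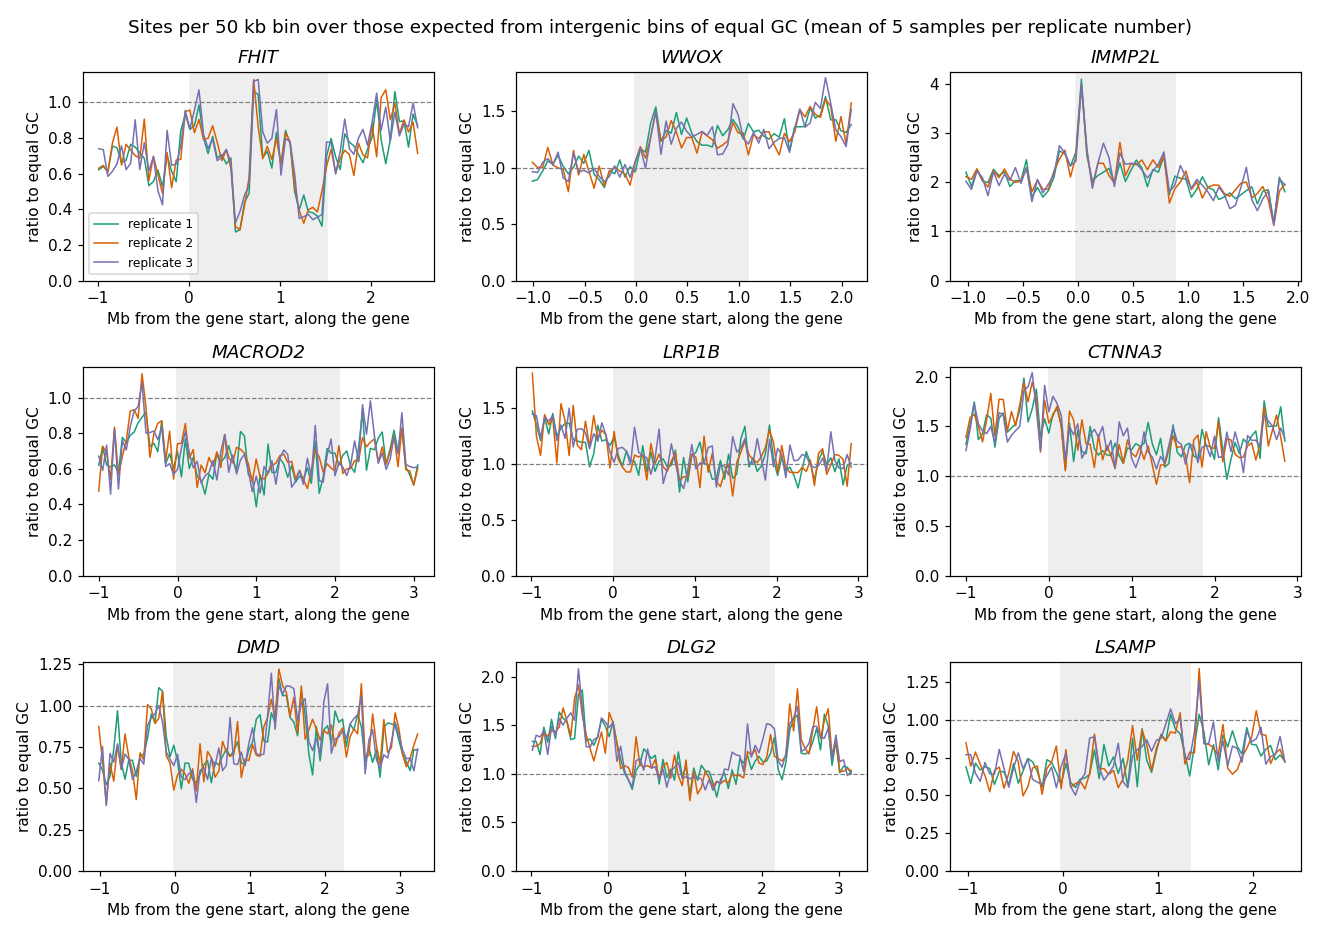
Sites per 50 kb bin over those expected from intergenic bins of equal GC (y axis) along each gene (shaded) and its 1 Mb flanks (x axis, Mb from the gene start), with 1 line per replicate number, the mean of its 5 samples. The 3 lines run together, and within the gene the FHIT lines fall below 0.5 in 2 stretches while the IMMP2L lines stay above 1 throughout. In the FHIT flank at -288 kb the lines of replicates 2 and 3 also fall below 0.5 (0.488 and 0.425).

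By strand, breaks on the gene strand and on the opposite strand were close to equal in number. The strands differ in T content, and the removal of T-rich termini left more positions for breaks on the gene strand in all 9 genes (for example 72.4% against 62.7% of the positions in IMMP2L). Per position left, the ratio of gene strand to opposite strand over the 15 samples had means between 0.909 ± 0.106 in LSAMP and 0.994 ± 0.0434 in MACROD2. All 9 means were below 1, but without the correction for positions 8 of 9 were above 1, so the direction rests on the correction.

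In the untreated samples the strand ratios of FHIT were 0.982, 1.00 and 0.842, and those of LSAMP were 1.00, 0.758 and 0.925. The median untreated strand ratio was 0.947 over the 9 genes, 0.955 over the 16 other fragile site genes and 0.968 over 297 other long genes with at least 100 sites, of which 96 were above 1. The spread between the samples of FHIT or LSAMP was wider than the distance of these medians from 1.

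**Figure D4:**
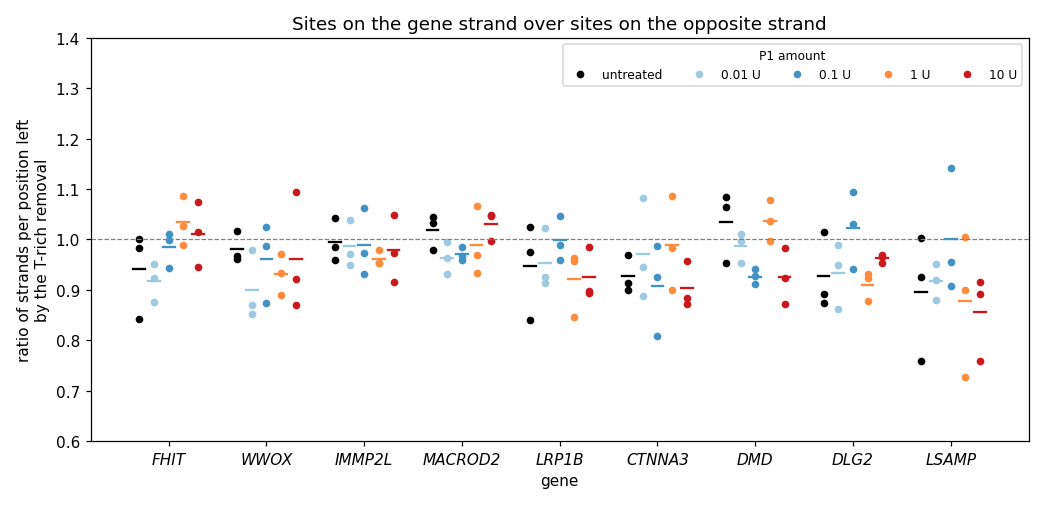
Ratio of sites on the gene strand to sites on the opposite strand per position left by the T-rich removal (y axis), with 1 point per sample, coloured by P1 amount, and a short line at the mean of 3. Every gene has samples on both sides of 1, and no gene has a mean over 15 samples above 1.

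The response to P1 was tested by comparing each amount with the untreated samples over all genes (edgeR quasi-likelihood test, replicate number as a block, Benjamini-Hochberg over 23955 genes, called at an adjusted p under 0.05). None of the 9 genes was called at any amount. Among all genes 0.0%, 0.0209%, 0.0125% and 0.242% were called at 0.01, 0.1, 1 and 10 U, so a count of 0 of 9 is no result about these genes. At an unadjusted p under 0.05, 0 of 9 genes passed at 0.01, 0.1 and 1 U, and 3 passed at 10 U, beside 4.93%, 4.83%, 5.44% and 10.1% of all genes. DESeq2 also called none of the 9, but at 10 U it called 0 of all genes, so this too is no result about them. It had 1 of the 9 at an unadjusted p under 0.05 at 10 U and 0 at the lower amounts. Its share over all genes at this threshold is not given.

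The changes were small. At 10 U FHIT had a site density of 143, 139 and 158, against 157, 174 and 155 untreated, so the groups overlapped. The log2 change of its site density was -0.15 (SE 0.0589, adjusted p = 0.349). MACROD2 had -0.11 (SE 0.0566, adjusted p = 0.488) and LRP1B -0.11 (SE 0.0551, adjusted p = 0.489). LSAMP and CTNNA3 had -0.07 each, DMD and WWOX -0.05 each, DLG2 -0.01 and IMMP2L 0.03. The median of the 9 was -0.07 and 8 were below 0, while the median of all genes was 0.02.

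At the lower amounts the log2 changes of the 9 genes lay between -0.04 and 0.06 (0.01 U), -0.09 and 0.05 (0.1 U) and 0.01 and 0.10 (1 U). The approximate 95% intervals bound what could have been missed in a gene's share of the sites of a sample. A change that P1 made alike in all sequence cancels in this scaling, and these intervals do not bound it. Over the 9 genes they reached from -0.16 to 0.16 (0.01 U), from -0.21 to 0.14 (0.1 U), from -0.11 to 0.21 (1 U) and from -0.26 to 0.13 (10 U), that is from a fold of 0.834 to a fold of 1.15 over the last 2 amounts. The 4 contrasts share the untreated samples.

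**Figure D5:**
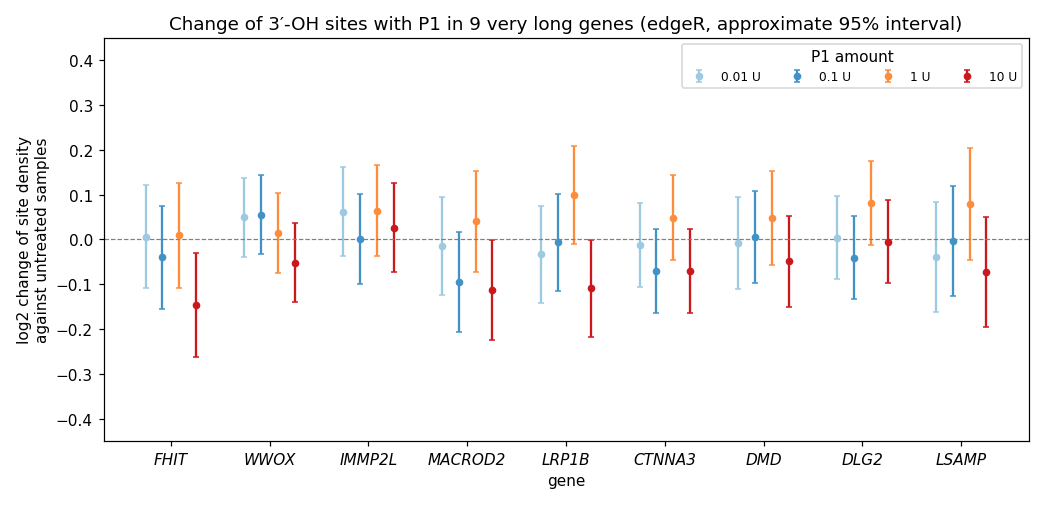
Log2 change of site density against the untreated samples (y axis) for each gene at the 4 P1 amounts, from edgeR, with approximate 95% intervals as bars (3 samples per amount). All intervals include 0 except those of FHIT, MACROD2 and LRP1B at 10 U, and all points lie between -0.15 and 0.10.

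Relative to intergenic sequence of equal GC, the test again called none of the 9 genes, against 0.0%, 0.0125%, 0.0125% and 0.309% of all genes at 0.01, 0.1, 1 and 10 U. None of the 9 had an unadjusted p under 0.05 at any amount in this edgeR fit, beside 4.55%, 4.99%, 4.94% and 10.5% of all genes. The median log2 change of the 9 genes at 10 U was then -0.03, with FHIT lowest at -0.10 and IMMP2L highest at 0.06, against 0.05 over all genes.

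Within the genes, 309 bins of 50 kb were tested among 55672 bins of the genome, and none was called at any amount. In the whole genome 0.0%, 0.0108%, 0.00718% and 0.162% of bins were called at 0.01, 0.1, 1 and 10 U. At an unadjusted p under 0.05, edgeR had 14, 16, 6 and 23 of the 309 bins and DESeq2 1, 4, 2 and 4. In edgeR this was 4.53%, 5.18%, 1.94% and 7.44% of the 309 bins, beside 4.70%, 4.88%, 5.30% and 8.37% of all bins. The DESeq2 share over all bins is not given. The lowest adjusted p at 10 U belonged to a bin of IMMP2L (0.157), where the highest bin had a log2 change of 0.56 (SE 0.166).

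The response of the strand ratio was tested in the same way. The interaction of strand and P1 amount was called in 0 of 9 genes, against 0.0%, 0.0%, 0.0% and 0.00835% of all genes, which again says nothing about these genes. In edgeR 1, 1, 0 and 0 of the 9 genes had an unadjusted p under 0.05 at 0.01, 0.1, 1 and 10 U, beside 4.18%, 4.52%, 4.63% and 6.37% of all genes. Log2 changes of the strand ratio at 10 U lay between -0.15 and 0.09, with a median of -0.04.

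Other long genes had changes of like size at 10 U. The median of the 16 other fragile site genes was -0.03, and 13 were below 0. Of the other 298 long genes 1 was called, SYNE1, which encodes a nuclear envelope protein, at -0.27 (adjusted p = 0.0479, and 0.137 relative to equal GC). With a replicate number left out its adjusted p lay between 0.144 and 0.470. The lowest change among them was that of LINGO2 (-0.46, adjusted p = 0.0702), and RIMS1 was at -0.27. The highest were PCDH11X at 0.16, ALDH1A2 at 0.15 and LRBA at 0.15. The median of the 298 was -0.05, with 210 below 0, beside -0.07 over the 9 members.

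The deposited regions, which the authors called with SICER separately in the 12 treated samples, each with the untreated sample of equal number as control, were sparse in the 9 genes. At 10 U the lists held 27, 53 and 22 regions in the 9 genes, 2.25 ± 1.10 per Mb, against 7.35 ± 3.49 per Mb over all chromosomes. At 0.01 U they held 18, 18 and 13 (1.08 ± 0.191 per Mb, against 3.11 ± 0.523), at 0.1 U 21, 11 and 9 (0.906 ± 0.426, against 3.04 ± 0.367) and at 1 U 13, 19 and 16 (1.06 ± 0.199, against 3.11 ± 0.842). The genes thus held 0.172% ± 0.0301 of the regions of a list (SD, n = 12), less than their 0.532% of the bases and also less than their share of the sites. By list, WWOX held 6, 13 and 5 regions at 10 U, IMMP2L 5, 10 and 3, and CTNNA3 6, 6 and 3. FHIT held 1, 1 and 2 and LSAMP 0, 0 and 1. By the mean per Mb, WWOX exceeded all chromosomes at 0.01 U (3.59 ± 2.38) and 0.1 U (4.79 ± 3.15). Its lists of 0.01 U held 6.29, 2.69 and 1.80 per Mb, against 3.61, 3.16 and 2.57, so only replicate 1 was higher. Those of 0.1 U held 8.08, 1.80 and 4.49, against 3.41, 3.05 and 2.67. The mean of IMMP2L exceeded all chromosomes at 0.01 U (4.45 ± 1.92) and 1 U (3.70 ± 0.642). Replicate 1 at 0.01 U and replicate 2 at 1 U went the other way. At the other amounts both means lay below all chromosomes, that of WWOX at 10 U only slightly (7.19 against 7.35). These comparisons are not corrected for GC.

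Over the 15 samples, the variation of the site density was small in each gene, from a range of 0.19 on the log2 scale in DMD to 0.39 in MACROD2. The long protein-coding gene with the most similar pattern over the samples was CDH12 for DLG2 (r = 0.894), SEMA5A for MACROD2 (r = 0.869), EYS for LRP1B (r = 0.856), RGS7 for CTNNA3 (r = 0.841), DIAPH2 for WWOX (r = 0.821), RASGEF1B for DMD (r = 0.789), CTNNA2 for FHIT (r = 0.782), AKAP6 for IMMP2L (r = 0.777) and PDE4B for LSAMP (r = 0.726). Each is the highest of 321 values over 15 samples, which share depth and base composition, and is given as a description.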

How the data were processed

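The authors aligned trimmed reads to hg19 with BWA 0.7.12, took uniquely mapped reads, removed termini with over 40% T in the 20 bases upstream in read 2, and deposited the count of termini per position and strand. A removal of this kind was found in the files, with 0.0003% and 0.0005% of the rows of either strand above 7 T. This limit of 7 T was read from the files and is stricter than the stated 40%. It was used for the positions left by the T-rich removal. The deposited region lists give a p-value from SICER 1.1 for each region, which was not used further. The recorded strand is that of read 2, so the break was placed on the other strand, as the 3′ end of mitochondrial 7S DNA at position 16107 requires. The bases at the recorded positions had like frequencies in plus and minus rows (G at 32.1% and 31.8%, C at 47.2% and 48.0% on chromosome 1 of untreated replicate 1), so the positions were used as deposited.

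Unique sites were counted in GENCODE 44 gene rows on hg19 and in 50 kb and 10 kb bins with at least 80% known bases, scaled to the 2046116 to 3859475 sites per file. Termini carry no molecular identifier, so each position and strand counted once. The control was the trimmed mean (10% from either end) of 8968 intergenic bins by GC percent. Counts were tested with edgeR 4.0.16 (features with a mean of at least 10 sites, replicate number as a block), checked on simulated data, with DESeq2 1.42.0 as an alternative. Approximate intervals are estimates with normal 95% limits. Named genes followed a rule: all 9 members, the called and the 3 highest and 3 lowest other long genes at 10 U, all segments, the regions in the most lists, the 5 positions in the most samples and the most similar gene of each member. Results that need items withheld from this text are not reported here. The members and lists were chosen with earlier results of these data known. Alternatives were other scaling, tools, filters, all termini, GC offsets, no block, omitted replicates, other controls, denominators, thresholds and bin sizes, and an FDR of 1e-05. The mitochondrial files served only the strand check, and the lists of clustered sites were not used.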

Additional observations from a re-analysis of the deposited data

How the results depend on the processing

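None of the 9 genes and none of their bins was called in any of the 100 combinations of fit, amount and alternative that were run. Few features were called in these fits at all. At 10 U the calls ranged from 0 (DESeq2) to 78 (all termini) of all genes, so this is no result about the 9 genes either. The log2 changes of the 9 genes over all settings lay between -0.26 (MACROD2 at 0.1 U without replicate 3) and 0.17 (LSAMP at 1 U without replicate 2). At 10 U the sign of the change of DLG2 turned with GC offsets (0.0415) and, over the omitted replicates, it lay between -0.0538 and 0.0381. That of IMMP2L lay between -0.0475 and 0.0764. SYNE1 lost its call with DESeq2, GC offsets, all termini, no filter and each omitted replicate. The cause of these changes was not tested.

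The replicate numbers did not pair the samples in the data (correlations of deviations between -0.06 and 0.09). The fit with no replicate block called 0 members in every comparison, moved the strand calls over all genes at 10 U from 2 to 1 and the calls over all bins at 0.01 U from 0 to 1, and moved the other totals by less than 1.5 times.

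Over all genes, the 0, 5, 3 and 58 calls at 0.01, 0.1, 1 and 10 U became 0, 0, 0 and 0 with DESeq2 and 1, 8, 5 and 78 with all termini, and those at 10 U became 31 with TMM factors and 33 with no filter. With GC offsets those at 0.1 U became 3. Of the calls at 10 U 44 of 58 were higher, and 19 of 31 with TMM factors, 40 of 78 with all termini and 65 of 74 with GC offsets. With a replicate omitted they ranged from 0 to 1, 3 to 4, 1 to 2 and 2 to 20. Relative to intergenic GC, the 3 and 74 calls at 1 and 10 U became 1 and between 2 and 25. Over all bins, the 0, 6, 4 and 90 calls became 0, 0, 0 and 2 with DESeq2, 6, 14, 10 and 176 with all termini, and 0 to 2, 4 to 12, 2 to 6 and 19 to 63 with a replicate omitted. The strand calls at 10 U then lay between 1 and 2.

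The median density ratio of the 9 genes (1.02) became 0.818 with the 1 Mb flanks as control and 1.04 with the intergenic bins of the same chromosome, an alternative chosen after seeing the data. Against the flanks IMMP2L moved to the other side of 1, as did CTNNA3, DLG2, LRP1B and LSAMP, and against their chromosomes DMD (1.17) and LRP1B (0.994) did. The positions left by the T-rich removal, all termini and the omission of the segment of few sites moved no density ratio by more than its SD. With thresholds of 0.1 and 0.5 there were 0 and 33 segments of few sites in place of 1, and with 50 kb bins, taken singly, 0 of few sites, 4 lower and 15 higher ones in place of 1, 2 and 3. Regions with an FDR of 1e-05 or less differed from all regions over the 9 genes by less than the SD between lists. A gene with few sites, such as LSAMP with 402 to 733, has the widest intervals, and the depth limits what could be called to changes beyond them.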
